A study of Mus musculus with 4 samples.

Results

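The AP-1 transcription factor genes Fos, Fosb, Fosl1, Fosl2, Jun, Junb, Jund, Atf3 and Maff, 9 of 21755 protein-coding genes on chromosomes 1 to 19 and X, were followed in H3K4me3 HiChIP of MLg cells. The genes were chosen by name, and their transcription start sites (TSS) were the 5′ ends of the GENCODE M21 gene records on GRCm38. MLg is a mouse lung fibroblast line, and HiChIP joins DNA ends that lie close together in the nucleus and then precipitates the chromatin that carries a chosen mark, here histone H3 trimethylated at lysine 4 (H3K4me3). The 4 libraries came from cells labelled WT (Control), cells with 5 ng/ml human recombinant TGFB1 for the last 4 h of a 24 h culture (TGFB1), cells with the same TGFB1 and an inhibitor of miR-9-5p at 60 nM (TGFB1+miR-9-LOF), and cells with the inhibitor alone (miR-9-LOF, loss-of-function). Values for the 4 libraries are given in this order. The labels name no control inhibitor for Control or TGFB1, although their common protocol lists a negative control probe. Each condition was 1 library, so differences between conditions have no replicate check, and every interval below is a 95% interval that covers counting error only.

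AP-1 is a dimer of basic leucine zipper proteins. Jun proteins pair with each other or with Fos proteins, Atf3 joins as a further partner, and Maff is a small Maf protein that lacks a transactivation domain. Many of these genes are immediate early genes, which are transcribed within minutes of a growth factor or stress signal through kinases that act on factors already bound at their promoters. H3K4me3 marks the start sites of active and poised genes, and in HiChIP it selects the pairs in which at least 1 end lies at such a site. AP-1 acts with SMAD proteins at many genes that respond to TGFB1.

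The promoters on which the contacts and marks described below turn are shown first, as the 250 bases before and 50 bases after the RefSeq start on GRCm38.p6, 5′ to 3′ in the direction of transcription. Capitals mark letters of a GC box, a TATA box or a cAMP response element (CRE). Jun, Fosl2 and Fos are shown because they had distal partners, Maff because it alone held the CRE, and Atf3 because its mark lay at this start rather than at the 5′ end of its gene record.
Jun (chr4:95052173-95052472, minus strand): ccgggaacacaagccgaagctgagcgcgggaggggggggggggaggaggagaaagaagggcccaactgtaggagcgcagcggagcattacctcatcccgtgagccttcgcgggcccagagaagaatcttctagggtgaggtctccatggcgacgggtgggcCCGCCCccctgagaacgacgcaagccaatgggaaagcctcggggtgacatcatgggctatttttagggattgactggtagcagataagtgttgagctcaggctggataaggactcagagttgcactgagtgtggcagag
Fosl2 (chr5:32136222-32136521, plus strand): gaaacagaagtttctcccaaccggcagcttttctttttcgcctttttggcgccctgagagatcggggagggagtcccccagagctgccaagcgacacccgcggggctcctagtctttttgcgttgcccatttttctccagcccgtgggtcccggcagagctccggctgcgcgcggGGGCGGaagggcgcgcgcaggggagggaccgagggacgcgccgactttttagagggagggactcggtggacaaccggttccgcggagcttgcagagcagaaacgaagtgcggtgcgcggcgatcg
Fos (chr12:85473640-85473939, plus strand): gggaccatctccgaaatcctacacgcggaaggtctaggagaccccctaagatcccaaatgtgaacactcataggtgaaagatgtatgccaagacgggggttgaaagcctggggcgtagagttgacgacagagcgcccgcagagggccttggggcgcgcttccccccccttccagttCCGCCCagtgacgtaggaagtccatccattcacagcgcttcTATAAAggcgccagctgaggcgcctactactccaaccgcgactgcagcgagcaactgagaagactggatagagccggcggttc
Maff (chr15:79347270-79347569, plus strand): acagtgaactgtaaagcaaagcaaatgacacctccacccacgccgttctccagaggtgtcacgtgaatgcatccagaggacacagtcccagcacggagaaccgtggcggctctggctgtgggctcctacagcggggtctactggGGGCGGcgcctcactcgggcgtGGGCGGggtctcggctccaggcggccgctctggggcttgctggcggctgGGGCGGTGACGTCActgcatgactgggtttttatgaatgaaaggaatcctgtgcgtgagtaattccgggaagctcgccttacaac
Atf3 (chr1:191183284-191183583, minus strand): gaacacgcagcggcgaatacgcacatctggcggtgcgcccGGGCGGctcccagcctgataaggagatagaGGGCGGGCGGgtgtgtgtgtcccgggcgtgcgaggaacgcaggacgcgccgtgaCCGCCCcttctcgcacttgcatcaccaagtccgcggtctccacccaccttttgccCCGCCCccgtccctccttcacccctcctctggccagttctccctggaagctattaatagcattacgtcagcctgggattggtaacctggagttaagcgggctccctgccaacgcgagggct

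The RefSeq start was the 5′ end of the GENCODE gene record for Jun and Fos. It lay 671 bp downstream of that end for Fosl2 and 34706 bp downstream for Atf3. It lay upstream of that end for Junb, at -30 bp, and for Jund, at -1210 bp. Maff had 3 entries in the table, at 0, 899 and 1781 bp downstream, and the entry at 899 bp is the one printed. Of the 9 members, 8 were in the promoter table, and Fosl1 was not matched. A GC box, GGGCGG or CCGCCC, was in a promoter of 6 of the 8 (Atf3, Fos, Fosb, Fosl2, Jun and Maff) and in 35.7% of the 32851 promoters of the table. In Atf3 it occurred 5 times, between 210 and 71 bases before the start. Fos held TATAAA at 33 bases before its start. Junb held it from 1 base after its RefSeq start, upstream of the TSS used for counting. Of all promoters, 13.6% held it on either strand. The CRE TGACGTCA was found in Maff alone and only in the entry printed, not in that at the TSS used for counting, 29 bases before the start and directly after a GC box, and in 1.79% of all promoters. The AP-1 site TGACTCA or TGAGTCA, present in 5.20% of promoters, was in none of the 8. Nor was the SMAD element GTCTAGAC, present in 0.213%, or the CArG box of serum response elements, present in 1.63%. Only full matches within the window were counted. Near matches, such as TGACATCA in Jun, and sites farther from the start were left out. These shares only describe the letters in windows of 300 bases. The windows of Fosl2, Jund and Atf3 did not hold the TSS used for counting. That of Jund lay wholly upstream of it, so the motif counts do not describe the place where its ends were counted.

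The libraries held 15359978 (Control), 10864558 (TGFB1), 14121095 (both treatments) and 15568047 (inhibitor alone) valid pairs, of which 4793354 to 6692306 were 20 kb to 2 Mb apart. A promoter was called marked when its pair ends within 2 kb of the TSS, averaged over the libraries, were at least 4 times those of the median coding promoter, which 2427 promoters (11.2%) were. The share of all ends that lay at marked promoters was 6.38% in Control, 4.68% after TGFB1, 2.75% with both treatments and 3.20% with the inhibitor alone. Among the fibroblast markers, Vim (5.01-fold) and Col1a1 (4.41-fold) were marked, whereas Thy1 (0.899-fold), Lum (0.764-fold) and Col3a1 (0.614-fold) lay below the median promoter. The 10 epithelial, endothelial and leukocyte markers lay between 0.464-fold and 1.16-fold, and 0 of them were marked. In the level-centred ratios between libraries described further on, 3 of the 8 fibroblast markers were past the fold downwards in miR-9-LOF over Control, Col1a2 (-0.62), Col3a1 (-0.52) and Lum (-0.50), with a median of -0.40 over the 8, where 14.0% of all tested promoters were past the fold in either direction. The endothelial marker Pecam1 was past it upwards in the same ratio (0.72), Cdh5 (0.66) and the leukocyte marker Cd3e (0.61) in TGFB1+miR-9-LOF over TGFB1, and Thy1 (0.63) in TGFB1+miR-9-LOF over miR-9-LOF, all of them unmarked.

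Of the 9 members, 5 were marked, Jun, Junb, Fosb, Fosl2 and Maff, against 11.2% of all coding promoters. Jun, the archetypal AP-1 subunit, had the most ends of the members in every library but that with the inhibitor alone, where Fosb had 440 and Jun 421. Jun had 8.75-fold the median coding promoter in Control (interval 8.19 to 9.34), 6.50-fold after TGFB1 (5.91 to 7.14), 4.15-fold with both treatments (3.72 to 4.62) and 4.78-fold with the inhibitor alone (4.34 to 5.26). Junb, a Jun protein with weaker transactivation, had 8.07, 6.03, 3.50 and 4.28-fold in the same order. In all 4 libraries Jun was above Junb, but the interval of their ratio left out 0 on the log2 scale only in TGFB1+miR-9-LOF. Jund, the Jun protein that is made constitutively in many cells, was unmarked at 3.35, 2.31, 1.89 and 2.27-fold.

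Among the Fos proteins, which dimerise only with other leucine zipper proteins, Fosb and Fosl2 were marked and Fosl1 and Fos were not. Fosb had 6.88-fold in Control, 6.04-fold after TGFB1, 4.04-fold with both treatments and 5.00-fold with the inhibitor alone. Fosl2 had 7.19, 5.29, 3.25 and 3.91-fold. Fosb was above Fosl2 in 3 of the 4 libraries, with an interval without 0 in both inhibitor libraries, and below it in Control, so that their order differed between libraries. Fosl1, which is commonly induced late after stimulation, had 4.29, 3.26, 2.41 and 3.75-fold. Fos, the prototype of the immediate early genes, had 2.37, 1.99, 1.66 and 1.52-fold. Fosl1 exceeded Jund in all 4 libraries with intervals that left out 0. The order differed when ends within 2 kb were set against the mean of the member's own chromosome, averaged over the libraries. Fos then had 6.39-fold and Maff 6.48-fold, against 4.77-fold at Jund and 4.51-fold at Fosl1. Jun stayed the highest, at 15.7-fold, and Atf3 the lowest, at 1.24-fold. The part of coverage differences between chromosomes in the levels was not tested.

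Maff was just inside the limit for marked promoters, at 4.24-fold over the libraries together, and Fosl1 just outside it, at 3.42-fold. Single libraries gave Maff 5.58, 4.50, 3.28 and 3.58-fold. Atf3, a repressor or activator induced by stress, had 0.524, 0.676, 0.812 and 0.807-fold at the 5′ end of its gene record, the lowest of the members in every library. At the median start of its coding transcripts, the place of the promoter printed above, Atf3 had 2.98, 2.48, 2.09 and 2.24-fold and stood at the 75.0th percentile of coding promoters in place of the 37.4th. Maff had 5.42-fold at its median coding start in place of 4.24-fold.

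**Figure D1:**
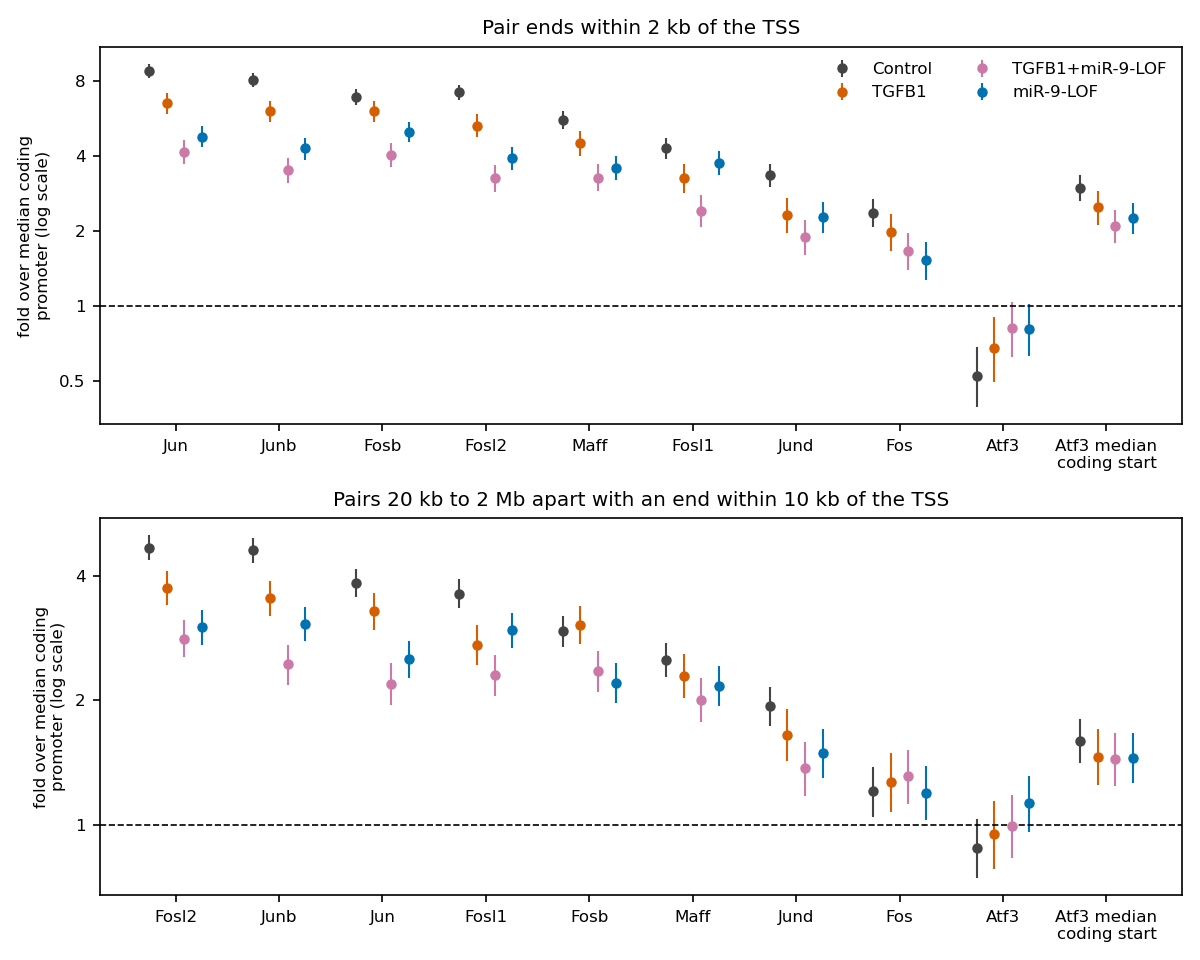
Pair ends within 2 kb of the TSS (top) and pairs 20 kb to 2 Mb apart with an end within 10 kb of the TSS (bottom), as fold over the median coding promoter of the same library on a log scale, for the 9 members in order of level and for Atf3 at its median coding start. Points are the 4 libraries with Poisson 95% intervals, the dashed line is the median promoter, and Control is the highest library for ends at 8 members and the lowest at Atf3.

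By ends, members above the 90th percentile of coding promoters numbered 4 in Control, 5 after TGFB1, 5 with both treatments and 6 with the inhibitor alone. Jun stood at the 96.0th to 97.0th percentile in the 4 libraries. Fosl1 stood at the 82.8th, 81.7th, 83.2nd and 91.3rd percentile in the same order, and Atf3 moved from the 32.3rd in Control to the 41.2nd in miR-9-LOF. A percentile does not move when all promoters are scaled alike, but it moves when their order changes. Junb, Fosb, Fosl2 and Maff stayed between the 89.5th and the 96.7th percentile in every library while their folds fell. The members had a median of 9 MboI sites within 2 kb, as had all coding promoters, and a median GC content of 56.7% against 48.1%, with 51.8% at marked promoters. The part of GC content in these levels was not tested.

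The ends were spread differently at the members. In bins of 250 bp, the highest bin of Jun reached 61.6-fold the chromosome mean, that of Junb 53.1-fold, and that of Fos 25.3-fold. Of the ends within 2 kb, 86.0% lay downstream of the start at Fosl1, 85.8% at Maff, 83.9% at Fosl2 and 81.3% at Junb, with a median of 70.1% at marked promoters, and 69.1% lay there at Fosb, 66.4% at Jun, 56.2% at Jund, 44.3% at Fos and 33.2% at Atf3. The bases within 10 kb that were at least 4 times the chromosome mean summed to 10250 bp at Junb, more than at 99.6% of marked promoters, and to 8500 bp at Fosb, more than at 97.2%. At Junb these include the starts of Rnaseh2a and Prdx2, 8951 and 9131 bp downstream, which are marked at 6.46 and 6.60-fold. No other coding gene starts within 10 kb of Fos, Fosb, Fosl1, Fosl2, Jun, Atf3 or Maff. The longest unbroken run of such bins that overlapped the 1 kb on either side of the start was 1750 bp at Fosb, 1250 bp at Fosl2, 1000 bp at Maff, 750 bp at Jun, Junb and Jund, 500 bp at Fosl1 and 250 bp at Fos and Atf3, with a median of 1000 bp at marked promoters. These runs spanned the start itself at Fosb, Fosl2 and Maff alone and lay beside it at the other members. At Fos, Jun, Jund, Maff and Atf3 they left out the bin with the most ends. At Junb 2 runs of 750 bp tied, and the run from the start to 750 bp downstream held that bin. Ends gather at MboI sites and bins without a site break a run, so these lengths are not widths of the mark. The highest bins and the shares downstream also depend on where the sites lie, and that part was not tested.

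**Figure D2:**
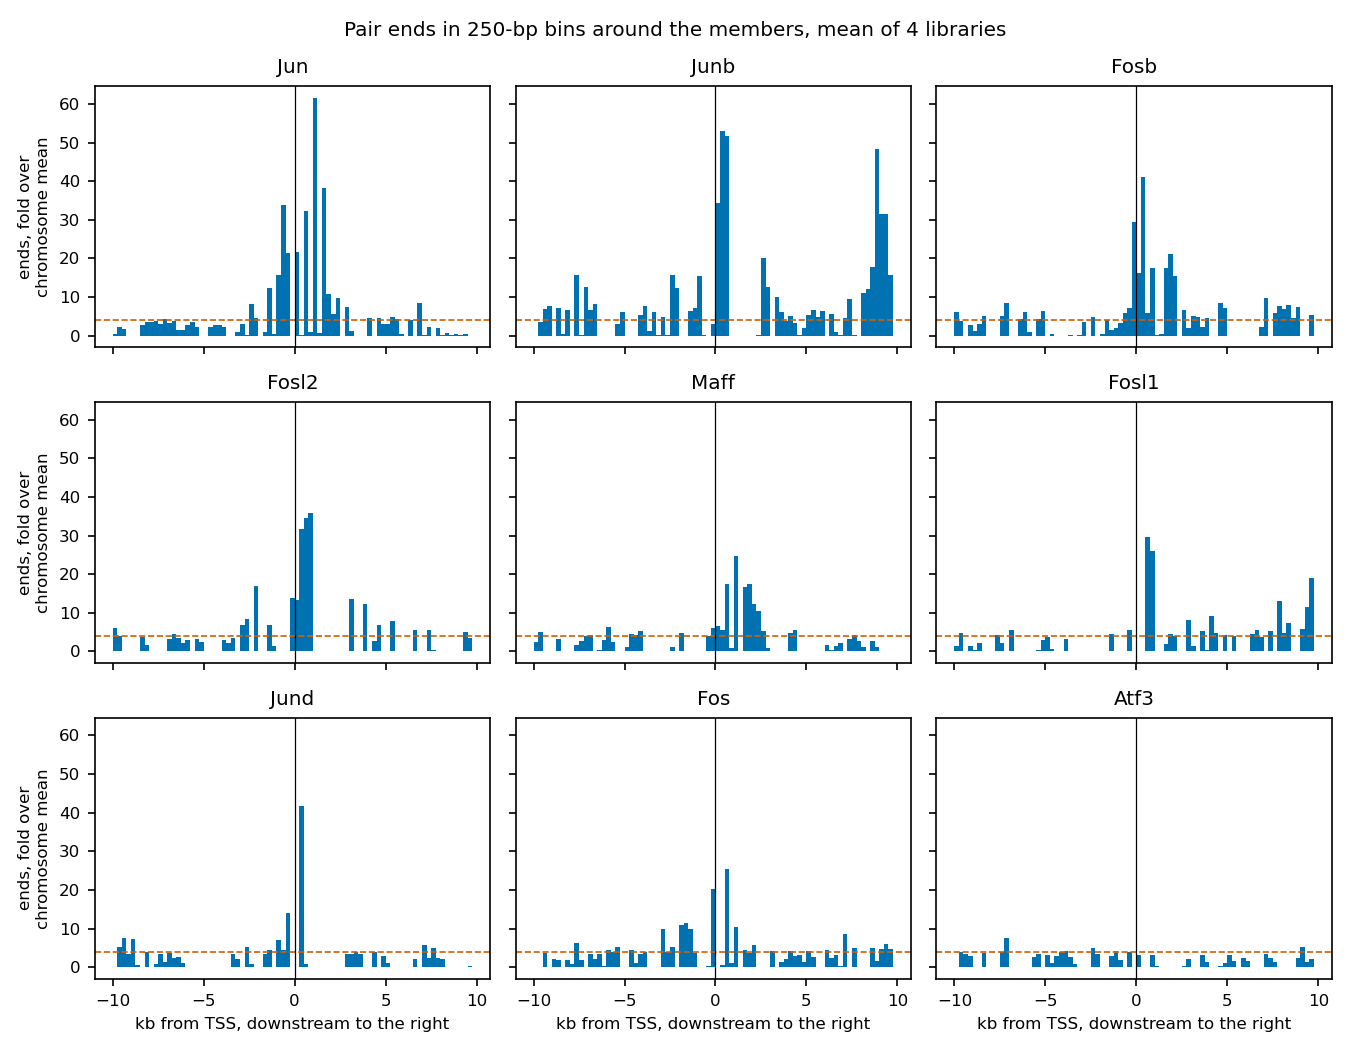
Pair ends in 250-bp bins from 10 kb upstream to 10 kb downstream of each TSS, as fold over the mean of the chromosome, averaged over the 4 libraries. The dashed line marks 4-fold, the highest bins are 61.6-fold at Jun and 53.1-fold at Junb, Junb has a further peak near the start of Prdx2, 9131 bp downstream, and Atf3 has no bin above 7.56-fold around the 5′ end of its gene record.

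The distal contacts of the members, pairs 20 kb to 2 Mb apart with an end within 10 kb of the TSS, were higher in rank than the ends at 7 of the 9. Over the libraries together 6 members stood above the 90th percentile, Fosl2 (98.8th), Junb (98.5th), Jun (97.2nd), Fosl1 (96.8th), Fosb (94.9th) and Maff (90.8th). Fosl2 had 4.70-fold the median promoter in Control, 3.75-fold after TGFB1, 2.82-fold with both treatments and 3.01-fold with the inhibitor alone. Junb had 4.62, 3.54, 2.45 and 3.07-fold, and the interval of the ratio of Fosl2 to Junb included 0 on the log2 scale in all 4 libraries. Fosl1, whose promoter was not marked, had 3.63, 2.73, 2.30 and 2.96-fold. Its window of 10 kb also held a second peak of ends, up to 19.1-fold the chromosome mean in the bin 9750 bp downstream, and that of Junb held the starts of Rnaseh2a and Prdx2, and the part of these in the contacts was not tested. Fos stayed close to the median promoter in every library, between 1.20 and 1.31-fold, and Atf3 between 0.877 and 1.13-fold.

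Whether contacts went to particular places was asked in 396 bins of 10 kb on both sides of each TSS. The number of pairs expected in a bin was set by its distance and by the coverage of both places, and a partner bin held at least 10 pairs and at least 2 times the expected number over the 4 libraries. Over 2363 marked promoters far enough from chromosome ends, 0.817% of bins were partners, with a median of 1 bin a promoter and 0 bins at 46.7% of them. Jun had 40 partner bins (10.1%), Fosl2 17 (4.29%), Fos 7 (1.77%) and Atf3 1 (0.253%), and Fosb, Fosl1, Junb, Jund and Maff had 0. Jun thus had more partner bins than 99.7% of the marked promoters, and Fosl2 more than 96.1%.

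Jun contacted the stretch upstream of it. Of its pairs, 79.3% went upstream, where 53.9% were expected. In fixed bands, observed over expected pairs upstream of Jun rose with distance from 1.32 at 20 to 100 kb through 1.73 at 100 to 200 kb, 2.58 at 200 to 400 kb and 3.74 at 400 to 600 kb to 6.43 at 600 to 900 kb (interval 5.73 to 7.20, 305 pairs against 47.4 expected). Beyond 900 kb the ratio was 1.69. Downstream it was 0.916 at 20 to 100 kb and between 0.334 and 0.683 in the bands beyond.

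The 3 strongest partner bins of Jun were next to each other, beginning 800, 810 and 820 kb upstream, at chr4:95852001-95882000 within Fggy, which encodes a carbohydrate kinase. The bin at 800 kb held 15 pairs against 1.21 expected (12.4-fold, interval 6.96 to 20.5), with 7 pairs in Control, 0 after TGFB1, 4 with both treatments and 4 with the inhibitor alone. The bin at 810 kb held 20 against 1.82 expected (interval of the ratio 6.70 to 16.9), with 7, 7, 2 and 4 pairs. No coding TSS lay in these bins or within 20 kb of them, and their own ends were at 0.751 to 0.939 of the chromosome mean, so these places carried no excess of H3K4me3 ends. Over the whole stretch 220 to 880 kb upstream, whose limits were chosen after the values were seen, Jun had 758 pairs against 200 expected, and 39 of its 66 bins were partners. The ratio there was 3.83 in Control (interval 3.41 to 4.30), 3.43 after TGFB1 (2.91 to 4.01), 4.07 with both treatments (3.43 to 4.79) and 3.89 with the inhibitor alone (3.32 to 4.53), and these intervals overlapped. This ratio allows for the coverage of Jun in each library, and the pairs themselves were 43.9, 32.2, 23.9 and 24.9 in every 1000000 pairs of that distance. The mirrored stretch downstream gave 0.532.

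Jun had 10 other coding start sites within 1 Mb, fewer than most marked promoters, whose median was 36. The number of partner bins moved with this density over the marked promoters, with a median of 5 bins at those with at most 18 neighbouring start sites and 0 at those with at least 57. Fosl2 had 31 neighbours, Fos 29 and Atf3, with 1 partner bin, 21, whereas Fosl1, Jund, Fosb, Maff and Junb had 61 to 102. The part of gene density in the partner counts was not tested. Of the marked promoters, 7 had at least as many partner bins as Jun, and these were Jun itself, Irs1, Slit2, Pcdh7, Cited2, Enc1 and Spry2, which were named after their values were seen.

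Fosl2 also contacted mainly its upstream side, with 77.3% of its pairs there against 51.3% expected. Its strongest bin lay 570 kb upstream, at chr5:31555001-31565000 in Slc4a1ap, with 33 pairs against 8.25 expected (4.00-fold, interval 2.75 to 5.61), and held 9, 6, 7 and 11 pairs in the 4 libraries. In Control alone other bins were the strongest, at Fosl2 with 11 pairs against 2.02 expected and at Jun with 8 against 0.461. A further bin 500 kb upstream, in Mrpl33 and Rbks, held 39 pairs against 11.2 (3.47-fold). In the fixed band of 400 to 600 kb upstream the ratio was 2.49 (2.25 to 2.74) and 14 of 20 bins were partners, while the bands downstream gave 0.180 to 0.433. Over the stretch 430 to 640 kb upstream, chosen after the values were seen, the ratio was 2.33 in Control, 2.20 after TGFB1, 2.46 with both treatments and 2.64 with the inhibitor alone, with overlapping intervals, while its pairs were 25.9, 17.4, 12.2 and 14.2 in every 1000000.

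Fos had its partners nearer. The strongest, 120 kb upstream at chr12:85343001-85353000 in Tmed10, a gene of vesicle transport, held 22 pairs against 6.50 expected (3.38-fold, interval 2.12 to 5.12), with 6, 5, 7 and 4 pairs in the 4 libraries. The bins 80 and 90 kb upstream held 24 and 25 pairs against 7.91 and 9.82 expected. Upstream bands gave 1.92 at 20 to 100 kb and 1.61 at 100 to 200 kb, against 0.465 at 20 to 100 kb downstream. The excess was not confined to the upstream side. A partner bin beginning 200 kb downstream held 11 pairs against 4.28 expected. Which of the 3 upstream bins was the strongest changed with the window and the bin size. In single libraries the strongest bin was 1 of these 3 in Control alone, and in the other 3 libraries it lay elsewhere and held 3 or 4 pairs.

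**Figure D3:**
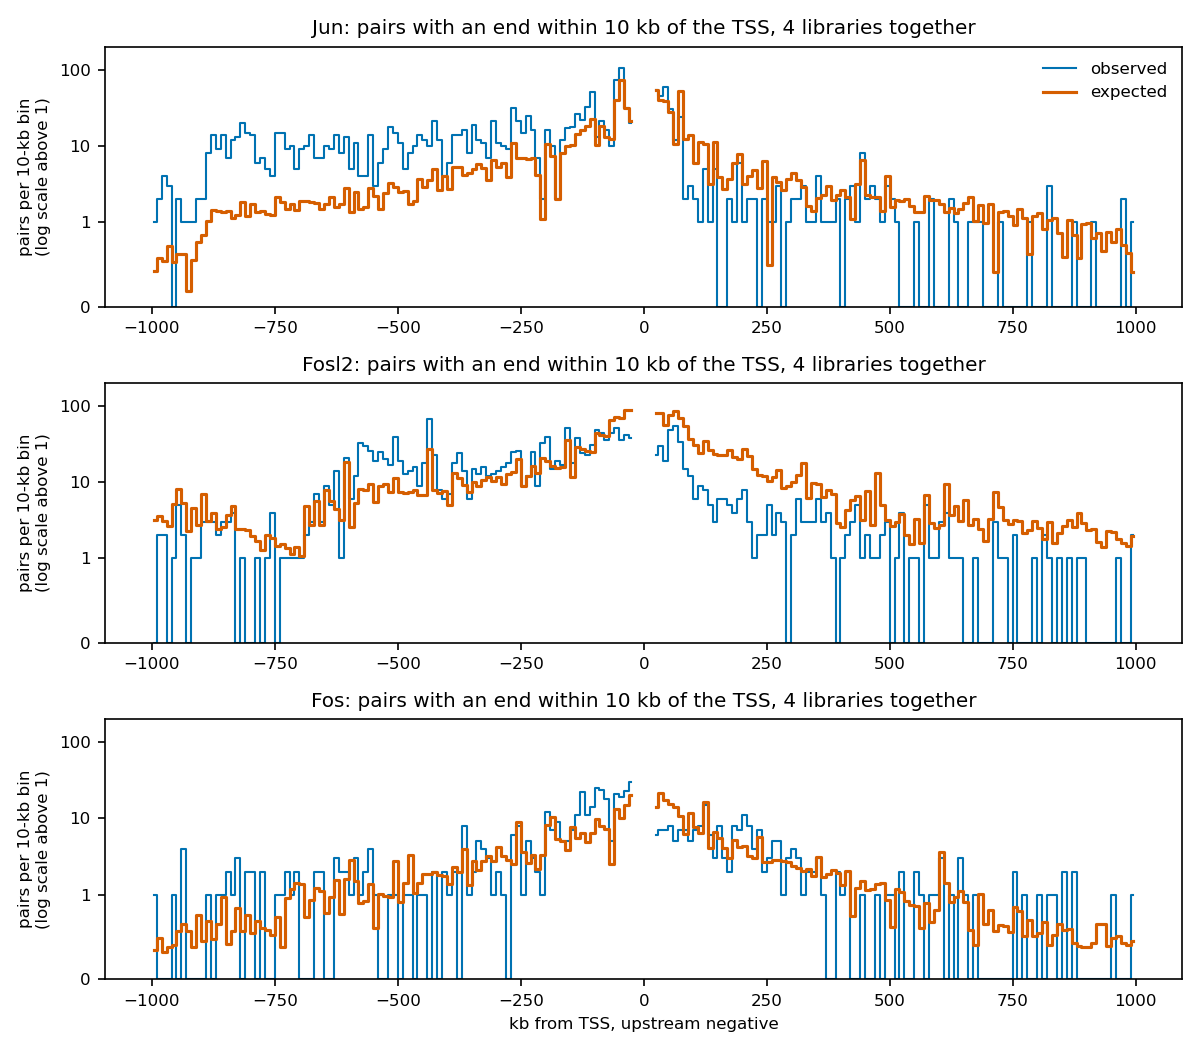
Pairs per 10-kb bin over the 4 libraries together (blue) and the number expected from distance and coverage (orange), from 1 Mb upstream to 1 Mb downstream of Jun, Fosl2 and Fos, on an axis that is logarithmic above 1. Most bins from 220 to 880 kb upstream of Jun and from 430 to 640 kb upstream of Fosl2 lie above expected, and most bins more than 100 kb downstream of both lie below it.

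The excess was not limited to the promoter windows. Viewpoints of 20 kb were moved in steps of 20 kb from 200 kb upstream to 200 kb downstream of each TSS. The target stretches were chosen from the promoters' own pairs after the values were seen, which favours high ratios at the promoters. Pairs with the 3 strongest bins of Jun were 11.3 times the expected number from the Jun promoter (48 pairs), 11.8, 14.0, 11.8 and 10.1 times from viewpoints 20, 40, 60 and 80 kb downstream, and 7.16 times from 20 kb upstream. These intervals overlapped, so Jun was not told apart from the DNA beside it. Farther upstream of Jun the ratio stayed above 1, at 7.85 (4.18 to 13.4) from 40 kb and 5.43 (1.99 to 11.8) from 160 kb. From 140 and 180 kb upstream the intervals included 1. From Fosl2 the stretch 430 to 640 kb upstream gave 2.38 times the expected number. Viewpoints 20, 40, 60 and 80 kb downstream of Fosl2 gave 2.28, 2.49, 2.62 and 1.94, and that 100 kb downstream gave 1.12. Upstream of Fosl2, 20 kb gave 1.60 (1.31 to 1.93), 100 kb 1.45 (1.20 to 1.73) and 160 kb 0.979 (0.802 to 1.18). At Fos, whose target was chr12:85333001-85393000, the promoter gave 2.60 and the viewpoint 20 kb downstream 2.90, against 1.27 at 40 kb downstream. The viewpoint 20 kb upstream of Fos gave 2.11 (1.69 to 2.61) and that 180 kb downstream 2.50 (1.60 to 3.72), whose intervals overlapped that of the promoter (2.13 to 3.14).

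**Figure D4:**
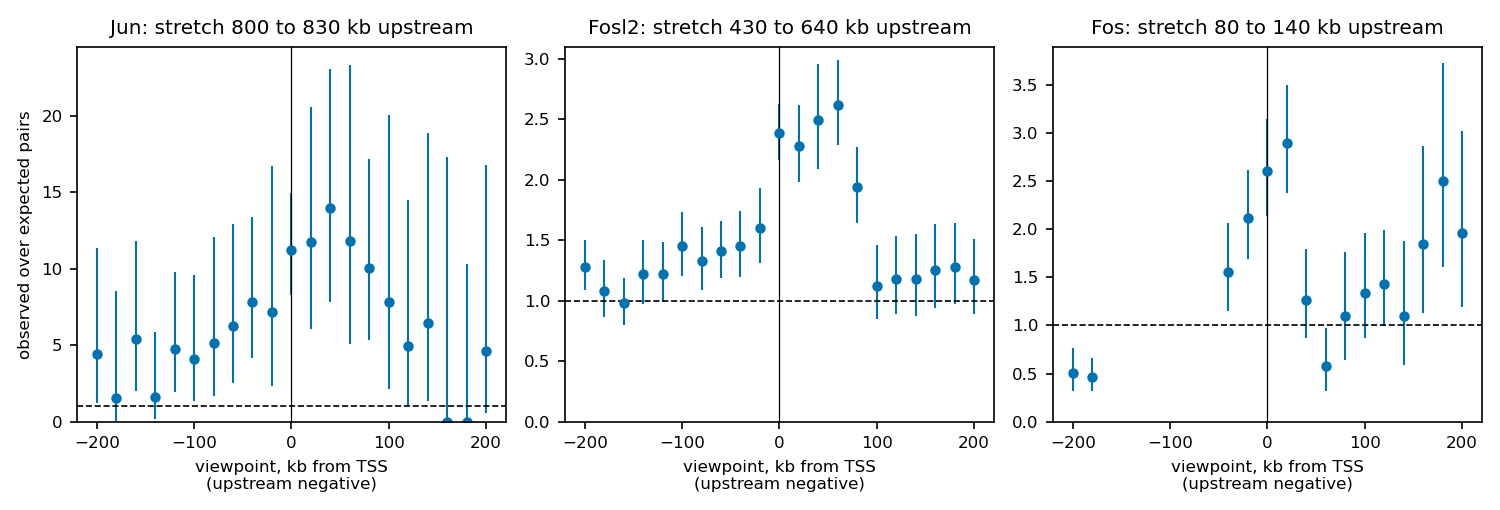
Observed over expected pairs, with Poisson 95% intervals, between 20-kb viewpoints around the TSS of Jun, Fosl2 and Fos and a fixed stretch upstream of each, over the 4 libraries together. Each stretch was chosen from the pairs of the promoter after the values were seen. Viewpoints less than 30 kb from an edge of the stretch are left out, and the dashed line is the expected number. The ratio is high at the gene and at the nearest viewpoints downstream of it. At Jun and Fosl2 it is also above 1 at viewpoints up to 100 kb upstream. For Fos it is also high at the viewpoint 20 kb upstream and again 160 to 200 kb downstream.

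Of the 5 members without partner bins, 4 had their strongest bin within 50 kb over the libraries together. For Fosb, this was 30 kb upstream at Ercc1, a DNA repair gene, with 196 pairs against 122 expected (1.61-fold, interval 1.39 to 1.85). Junb had 159 pairs with Tnpo2, a nuclear import receptor, 50 kb upstream, which is marked at 11.7-fold, but the number expected from coverage was 177 (0.899-fold). Jund had 88 pairs with Lsm4, 20 kb upstream, against 70.6, and Fosl1 had 85 pairs with the bin of Efemp2 and Mus81, 30 kb downstream, against 112. Maff had its strongest bin 70 kb upstream, with 37 pairs against 31.0, and another bin was the strongest under most other settings. In each inhibitor library taken alone the strongest bins of Junb and Jund lay elsewhere too, with 3 to 13 pairs. Expected numbers grow with the product of both coverages, so places between marked promoters can hold many pairs and still lie below 1, and the median ratio over all bins of a marked promoter was 0.714. The ratio over all bins was 0.341 at Fosl1, lower than at all but 0.381% of marked promoters, and 1.56 at Jun, higher than at 97.7%.

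At the 5′ end of its gene record Atf3 had its strongest bin inside its own gene, 20 kb downstream, with 32 pairs against 18.7 (1.71-fold). From the median coding start, the strongest bin was 80 kb upstream, at chr1:191263001-191273000, with 33 pairs against 10.8 expected (3.06-fold, interval 2.10 to 4.29), in a place without a coding gene. The partner bin of Atf3 100 kb downstream, at Batf3, held 14 pairs against 6.78 (2.06-fold).

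Some relatives of AP-1 lie near members. Fos is on chromosome 12 with Jdp2, a repressor that pairs with Jun proteins, and Batf, an AP-1 factor of lymphocytes. Windows of 20 kb at Fos and Batf, 213 kb apart, shared 17 pairs against 7.70 expected (2.21-fold, interval 1.29 to 3.54), with 1 pair in Control, 6 after TGFB1, 6 with both treatments and 4 with the inhibitor alone. Fos and Jdp2 shared 24 against 21.6, and Atf3 and Batf3 26 against 18.9, with intervals that included 1. Fosl1 and Batf2, 693 kb apart, shared 1 pair against 11.8. Between members on different chromosomes 0 pairs were found in the 4 libraries, where coverage alone gave 0.600, and Junb and Jund, 14280 kb apart, shared 1.

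The conditions were compared by the log2 ratio of their share of all ends, centred on the running median of the 500 coding promoters nearest in level, because the ratio of all promoters moved with their level. Without centring the median member fell by 0.49 in TGFB1 over Control, by 0.60 in TGFB1+miR-9-LOF over TGFB1, by 0.88 in miR-9-LOF over Control and by 0.26 in TGFB1+miR-9-LOF over miR-9-LOF, while the median marked promoter fell by 0.45, 0.76, 1.00 and 0.22. A fall of the mark in every cell, a loss of it in some cells and lower enrichment of a library cannot be told apart. A centred ratio of at least 0.5 above or below 0 was counted as past the fold, and 0 of the 9 members were past it in any of the 4 ratios. Of the 19505 promoters with a mean of at least 20 ends a library, 10.4%, 10.6%, 14.0% and 7.91% were past it in the same order. The standard deviation of the centred ratios was 0.309, 0.313, 0.347 and 0.284 over all tested promoters. Over marked promoters it was 0.127, 0.143, 0.183 and 0.158, so the shares over all promoters also rest on promoters with fewer ends than most members. Shares of promoters whose interval left out 0 were 12.8%, 10.9%, 22.6% and 10.4%, against 0, 0, 2 and 1 of the 9 members.

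After 4 h of TGFB1, the centred ratio over Control was -0.07 for Jun (interval -0.24 to 0.10), -0.07 for Junb (-0.25 to 0.10), 0.04 for Fos (-0.27 to 0.35), 0.16 for Fosb (-0.02 to 0.34) and -0.08 for Fosl2 (-0.27 to 0.10). Changes of more than about 0.35 relative to promoters of like level thus lay outside the counting intervals of these 5. Without centring, their ratios were -0.53 for Jun, -0.52 for Junb, -0.36 for Fos, -0.29 for Fosb and -0.54 for Fosl2. The intervals set no limit to a change shared with promoters of like level. Jund, at -0.20 (-0.48 to 0.08), was the lowest member and Atf3, at 0.21 (-0.39 to 0.80), the highest and least precise. With the inhibitor added to TGFB1, the members lay between -0.17 at Junb and 0.17 at Fos over TGFB1.

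Fosl1 and Fosb were the members whose ends had intervals without 0, and in miR-9-LOF over Control these 2 of 9 were a share near the 22.6% of all tested promoters. In miR-9-LOF over Control the centred ratio was 0.48 for Fosl1 (interval 0.27 to 0.69) and 0.28 for Fosb (0.11 to 0.46), and 92.9% and 82.3% of tested promoters lay lower. Uncentred, Fosl1 fell by 0.44 and Fosb by 0.71. In TGFB1+miR-9-LOF over miR-9-LOF Fosl1 was at -0.45 (-0.71 to -0.19), with 5.61% of tested promoters lower. The TGFB1 ratio of Fosl1 with the inhibitor minus that without it was -0.40 (interval -0.75 to -0.06), and 0 of 9 members differed by at least 0.5 with an interval without 0, against 6.32% of promoters. Fosl1 in miR-9-LOF passed the fold, at 0.52 to 0.59, with a window of 1 kb, with pairs of high mapping quality and with ends of distant pairs alone. Both ratios share the miR-9-LOF library.

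**Figure D5:**
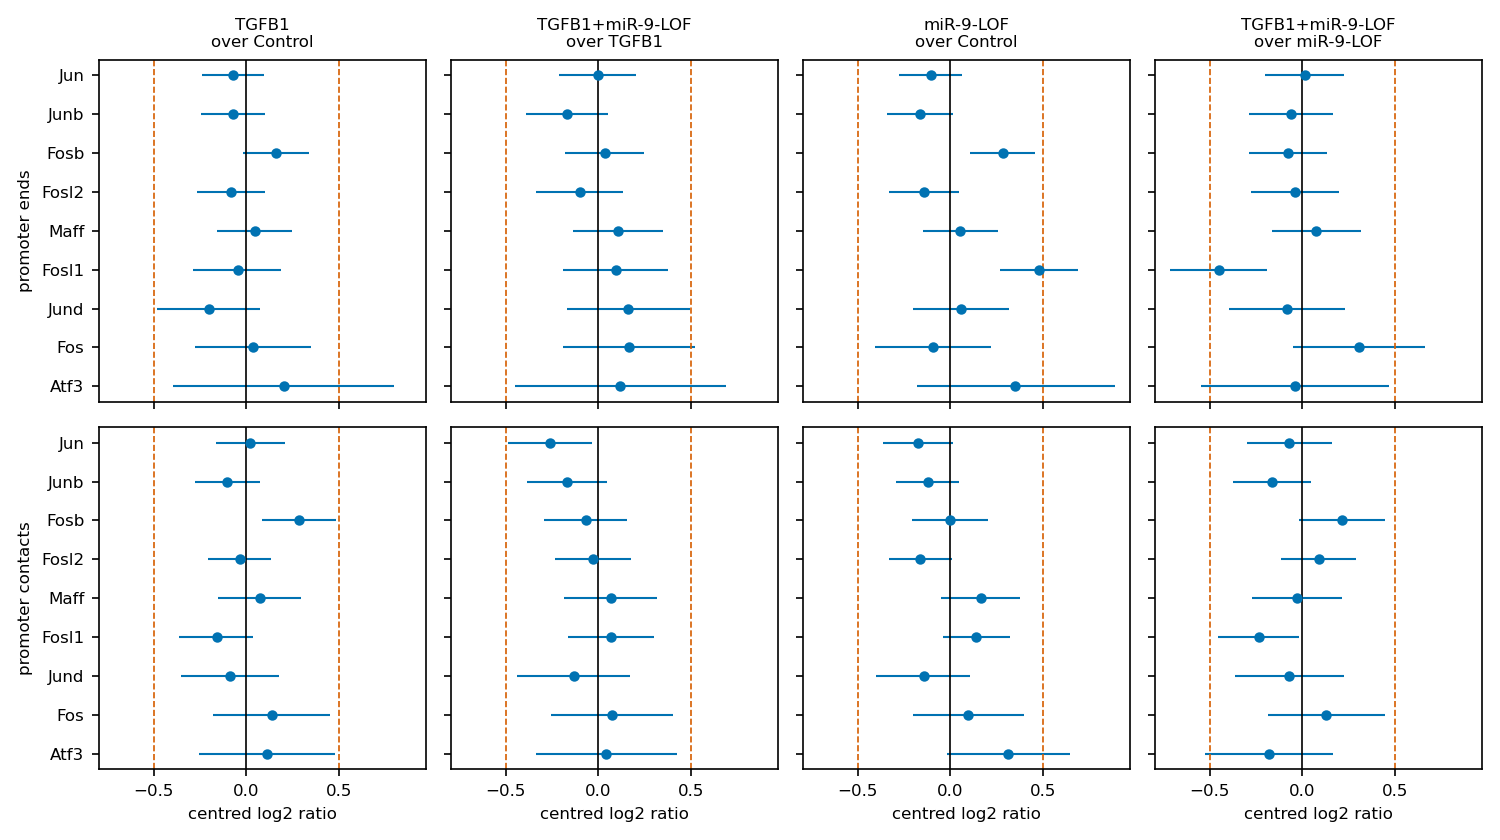
Centred log2 ratios of promoter ends (top) and of promoter contacts (bottom) for the 9 members in 4 ratios between libraries, with 95% counting intervals. The solid line is 0, dashed lines are 0.5 above and below it, all 72 points lie within the dashed lines, and Fosl1 is the farthest out, at 0.48 in miR-9-LOF over Control and at -0.45 in TGFB1+miR-9-LOF over miR-9-LOF.

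Contacts gave 0 of 9 members past the fold in the 4 ratios, against 5.29%, 5.49%, 9.22% and 3.35% of 20696 tested promoters. The standard deviation of the centred ratios was 0.253, 0.258, 0.296 and 0.225 over tested promoters and 0.140, 0.168, 0.180 and 0.155 over marked ones. The intervals of 1, 1, 0 and 1 members left out 0, against 12.5%, 11.7%, 23.7% and 8.79% of tested promoters. Contacts of Fosb in TGFB1 over Control were at 0.28 (interval 0.08 to 0.48), with 503 pairs in Control and 351 in TGFB1, and at -0.04 without centring. Contacts of Jun in TGFB1+miR-9-LOF over TGFB1 were at -0.26 (-0.49 to -0.04), with 378 pairs after TGFB1 and 285 with both treatments, and its pairs with the stretch 220 to 880 kb upstream went from 155 to 143, in a larger library. Contacts of Fosl1 in TGFB1+miR-9-LOF over miR-9-LOF were at -0.24 (-0.45 to -0.02), the same side of 0 as its ends. The difference of the TGFB1 effect with and without the inhibitor had an interval with 0 for the contacts of all 9 members, and 5.06% of promoters differed by at least 0.5 with an interval without 0.

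Genes around the members in the pathway were read the same way. Of 15 relatives with a leucine zipper, 7 were marked, led by Maf (9.40-fold), Creb1 (6.52-fold) and Mafg (6.36-fold). The ends of Crem were past the fold in miR-9-LOF over Control (-0.61). Of 15 kinases and factors upstream of AP-1 genes, 4 were marked, led by Elk4 (5.05-fold), Dusp1 (4.74-fold) and Srf (4.62-fold), and 0, 2, 2 and 0 were past the fold in the 4 ratios. These were unmarked kinase genes, Mapk3 (-0.57) and Mapk8 (-0.77) with the inhibitor added to TGFB1, and Mapk8 (-1.15) and Mapk10 (0.53) in miR-9-LOF over Control. Of 12 genes commonly given as AP-1 targets, 2 were marked, Vegfa (9.62-fold) and Plaur (4.10-fold), and 0, 1, 0 and 0 were past the fold, Mmp13 alone (-0.84). By contacts, 1, 0, 1 and 0 of the relatives, 0, 0, 3 and 0 of the upstream genes and 0, 4, 1 and 2 of the targets were past the fold, and none of these genes was marked. The shares over all tested promoters were 10.4%, 10.6%, 14.0% and 7.91% for ends and 5.29%, 5.49%, 9.22% and 3.35% for contacts, and no test of a list against them was made. The median level was 4.24-fold for the 9 members, 3.60-fold for the relatives, 2.72-fold for the upstream genes and 2.57-fold for the targets. Among marked promoters other than members, 3 were nearest to the mean of the members in centred ends over the 4 libraries. By root mean square difference these were Cmip (0.00951), Pigt (0.0104) and 2310011J03Rik (0.0113). The mean of the members lay between -0.034 and 0.054 on this log2 scale, so these promoters also lay close to the running median.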

How the data were processed

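The 4 libraries were H3K4me3 HiChIP of MLg cells. The authors aligned the reads to mm10 with HiC-Pro, removed duplicates, assigned ends to MboI fragments and deposited valid pairs as positions, 1 line a pair, with the mapping quality score of each end, which the authors took from the aligner. The HiC-Pro version is not given in the sources used here. The lines were counted here. The labels and the methods differ in the number of cells per library. Fragment numbers matched the MboI sites of GRCm38 for 99.9691% to 99.9972% of the ends checked.

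The members and lists were chosen with earlier results of these data known. Coding TSS came from GENCODE M21. Ends within 2 kb and pairs 20 kb to 2 Mb apart with an end within 10 kb were counted, divided by all ends or all such pairs, and set against the median coding promoter. Ratios between libraries carry exact binomial 95% intervals conditional on both counts, levels exact Poisson intervals, and differences of ratios a normal interval. Expected pairs were the product of the coverages in bins of 1 kb and a factor for distance, fitted genome-wide in each library. The pairs of a viewpoint count in its own coverage, so many pairs at some places lower the ratio at others. Partner bins were ranked by the lower bound of the interval of observed over expected. The genes named besides the members are the 3 with the most ends of each list and any past the fold. The coding genes at partner bins and the 3 nearest marked promoters are named too, with exceptions stated. No test between conditions was made because each had 1 library. The centred ratios of ends and the calling of partner bins were tested on simulated data, and the other steps were not. The steps ran in numpy 2.4.6 and scipy 1.17.1 under Python 3.11.15, with pandas 2.3.3 for tables and matplotlib 3.10.9 for figures. Other windows, starts, mapping quality, kinds of pairs and centrings were tried. Promoter sequences are from RefSeq (GRCm38.p6). A result for 1 gene of the lists is not reported here.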

Additional observations from a re-analysis of the deposited data

How the results depend on the processing

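No paired analysis was possible because each group held 1 library, and no replicate could be left out. For ends, the count of members past the fold went from 0 to 1 in miR-9-LOF over Control with a window of 1 kb (Fosl1, 0.59), when both ends had mapping quality 30 or more (0.52) and with ends of pairs at least 20 kb apart or on different chromosomes (0.52), where Fosl1 also gave 1 in TGFB1+miR-9-LOF over miR-9-LOF (-0.54). A window of 5 kb and the median coding start left the counts at 0. Centring on the median of marked promoters gave 1, 1 and 2 members in the first 3 ratios. These were Atf3 (0.72, 0.89 and 1.37), an unmarked start, and Fosl1 (0.55). Centring on the median of all promoters gave 1, 1, 4 and 1 in the 4 ratios, and no centring gave 4, 6, 7 and 1, all of them falls, and promoters of like level fell too. For contacts, these 3 centrings gave 1 member in miR-9-LOF over Control (marked), 2 in TGFB1+miR-9-LOF over TGFB1 and 3 in miR-9-LOF over Control (all promoters), and 1, 4 and 6 in the first 3 ratios (none), with 0 elsewhere. Of the members' centred ratios under the centred alternatives, 231 of 252 for ends and 199 of 216 for contacts stayed within the interval of the value reported. The count of members whose TGFB1 ratio differed with and without the inhibitor stayed at 0 under these alternatives, which were added for it after seeing the data.

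Members in the top 10% by ends went from 5 to 3 in both TGFB1 libraries with a window of 1 kb, and by contacts from 6 to 3 in both inhibitor libraries with a window of 25 kb. The strongest bin stayed within 20 kb for 6 of 9 members in Control alone and in TGFB1 alone, 5 in the library with both treatments and 4 in that with the inhibitor alone. The causes of these changes were not tested. Counts of 46 to 901 ends a member and library limit the ratios, least precisely at Atf3.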
